A study of Caenorhabditis elegans with 119 samples.

Results

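The 8 Caenorhabditis elegans genes for making and splitting trehalose were followed through every RNA library of the series, each made from whole adult worms. They were taken by name from the 46926 genes of each deposited count table. They comprised the trehalose 6-phosphate synthase genes tps-1 and tps-2, the trehalose 6-phosphate phosphatase gene gob-1, and the trehalase genes tre-1, tre-2, tre-3, tre-4 and tre-5. All 8 were found in each table, and all 8 passed the filter on low counts in each model.

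Worms of 3 strains lived at 20 °C on E. coli OP50-1 and were moved on day 1 of adulthood to plates that held 51 µM FUdR, a drug that stops progeny from developing. The plates held sulforaphane (SFN), an isothiocyanate found in cruciferous plants, or DMSO without it. DMSO is the solvent of SFN and was at a final concentration of 0.25%, and both groups were given FUdR. The SFN concentration is not given in the sources used here. PX991 carries daf-16(fx107), a mutation in the FOXO factor of insulin signalling, and EU1 carries skn-1(zu67), a mutation in the Nrf-type factor of the oxidative stress response. Both mutants were collected at days 4 and 12 of adulthood, PX991 with 4 libraries per group and EU1 with 6, except 5 for SFN at day 4. N2, the wild type, was collected with SFN and with DMSO at days 2, 4, 8, 12 and 16 with 4 libraries per group. A separate set of 40 N2 libraries held DMSO worms of trials 2 and 3 at the same ages, 4 per age and trial. Each library came from about 50 worms. Per the labels' protocols the replicates were biological, and they were aged and collected together, apart from EU1 replicates 4, 5 and 6, which were collected at separate times. Each mutant is represented by a single strain, so the allele and the rest of the strain's genome cannot be told apart.

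Trehalose is a sugar of joined glucose units that nematodes use as a store and as a protectant against drying and high salt. A synthase of the TPS type joins glucose from UDP-glucose to glucose 6-phosphate, the phosphatase GOB-1 removes the phosphate, and trehalases split the finished sugar into glucose. Synthases and phosphatase thus stand on the side of synthesis and the TRE enzymes on the side of breakdown. Loss of gob-1 blocks the gut of young larvae. In worms with low insulin signalling the tps genes are known to be raised through DAF-16.

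All members are protein-coding genes, with positions in WBcel235 as follows. On the X chromosome lie tps-1 (WBGene00006602, 17467121 to 17474534, minus strand), gob-1 (WBGene00001649, 15493602 to 15497504, plus strand) and tre-4 (WBGene00006610, 13472155 to 13475926, plus strand). On chromosome II lie tps-2 (WBGene00006603, 14600902 to 14610554, plus strand) and tre-5 (WBGene00006611, 52997 to 55304, minus strand). The other trehalase genes are tre-1 on chromosome I (WBGene00006607, 6554729 to 6558665, plus strand), tre-2 on chromosome IV (WBGene00006608, 6876731 to 6883442, minus strand) and tre-3 on chromosome V (WBGene00006609, 11709769 to 11715903, minus strand). Over the counted exons, tre-4 shares 51 bases with efn-3 on the opposite strand and tps-2 shares 24 bases with arl-3 on the same strand. The N2 treatment libraries were counted with no strand setting, so reads from those stretches cannot be assigned to 1 gene. The other 6 members overlap no other gene there.

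Library depth, as total counts in M (1e6 counts), was 0.585 to 5.46 in PX991, 2.06 to 10.3 in EU1, 0.445 to 12.5 in the N2 treatment set and 1.07 to 8.61 in the 2 further trials. A pair of N2 DMSO libraries stood apart in genes detected. At a common depth of 444501 counts, day 4 replicate 4 showed 6660 genes and day 2 replicate 1 showed 7116, while the group means outside their own 2 groups ran from 10547 to 12658 genes. Both had 0 counts of tps-1, tre-4 and tre-5, and the day 2 library also had 0 counts of tre-3. With 3 counts taken as the limit that a count of 0 allows, these zeros permit up to 5.47 CPM (counts per 1e6 counts, TMM-scaled) in the day 4 library and up to 4.63 CPM in the day 2 library. Comparisons in DMSO worms at days 2 and 4 therefore rest in part on shallow libraries. Only counting error is covered by these limits.

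Per kilobase of counted sequence, tre-1 was the most abundant member in every library. It was followed by tre-2 in 23 of the 28 groups, and the lowest member was tre-5 in 15 groups and tre-4 in 13. In N2 worms on SFN at day 12, tre-1 stood at 50.4 ± 4.6 CPM per kb (SD, n = 4), gob-1 at 26.1 ± 4.1, tre-2 at 25.1 ± 1.3, tre-3 at 19.2 ± 2.7, tps-2 at 14.3 ± 2.0, tps-1 at 9.48 ± 2.1, tre-5 at 5.00 ± 0.54 and tre-4 at 4.29 ± 0.83. The neighbours gob-1 and tre-2, and the neighbours tre-5 and tre-4, lay within 1 SD of each other. In N2 worms on DMSO at day 12 the order was tre-1 at 35.4 ± 3.2 CPM per kb, tre-2 at 21.4 ± 2.3, gob-1 at 12.2 ± 1.3, tps-2 at 7.57 ± 0.48, tre-5 at 6.54 ± 2.0, tre-3 at 6.41 ± 0.23, tps-1 at 5.02 ± 0.49 and tre-4 at 1.93 ± 0.54. Here tps-2 and tre-5, and tre-5 and tre-3, lay within 1 SD of each other. Both synthases stood below gob-1 in each of these groups.

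The members differed in how far their level moved over the 28 groups. Group means spanned 16.7-fold for tre-5 (0.976 to 16.3 CPM, and up to 38.8-fold without replicate 2 of N2 DMSO at day 4, a group that also holds a shallow library with 0 counts of tre-5), 8.16-fold for tre-3, 8.12-fold for tre-4 and 5.98-fold for tps-1 (9.41 to 56.3 CPM). They spanned 3.94-fold for tre-2, 3.70-fold for tre-1 (60.1 to 222 CPM), 3.38-fold for tps-2 (23.5 to 79.6 CPM) and 2.51-fold for gob-1 (23.1 to 58.0 CPM). The phosphatase gene was thus the narrowest in range and the least abundant trehalases the widest. The libraries of different tables were scaled separately, so these spans describe the values and were not tested.

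The make-up of the trehalase pool varied with age. Of the summed trehalase CPM per kb in N2 worms on SFN, tre-1 made up 55.3, 53.4, 42.7, 48.5 and 58.4% at days 2, 4, 8, 12 and 16, and tre-3 made up 8.95, 13.6, 26.8, 18.4 and 6.01% (means of 4 libraries). On DMSO, tre-1 made up 55.8, 54.3, 52.0, 49.5 and 49.5%, and tre-3 made up 5.09, 12.3, 18.2, 8.95 and 8.04%. The tre-3 share was thus highest at day 8 on both treatments of this set. In the DMSO worms of trial 2 it was 7.28, 9.29, 10.4, 6.18 and 8.5% at the same ages. In those of trial 3 it was 13.5, 13.9, 13.4, 9.59 and 5.81%, highest at day 4. At day 12 the tre-3 share of the treatment set was 18.4 ± 1.4% on SFN and 8.95 ± 0.09% on DMSO (SD, n = 4 each). The tre-5 share was 2.08, 0.925, 2.55, 4.82 and 5.97% on SFN and 0.785, 0.422, 3.75, 9.07 and 10% on DMSO, so it was larger late than early on both.

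**Figure D1:**
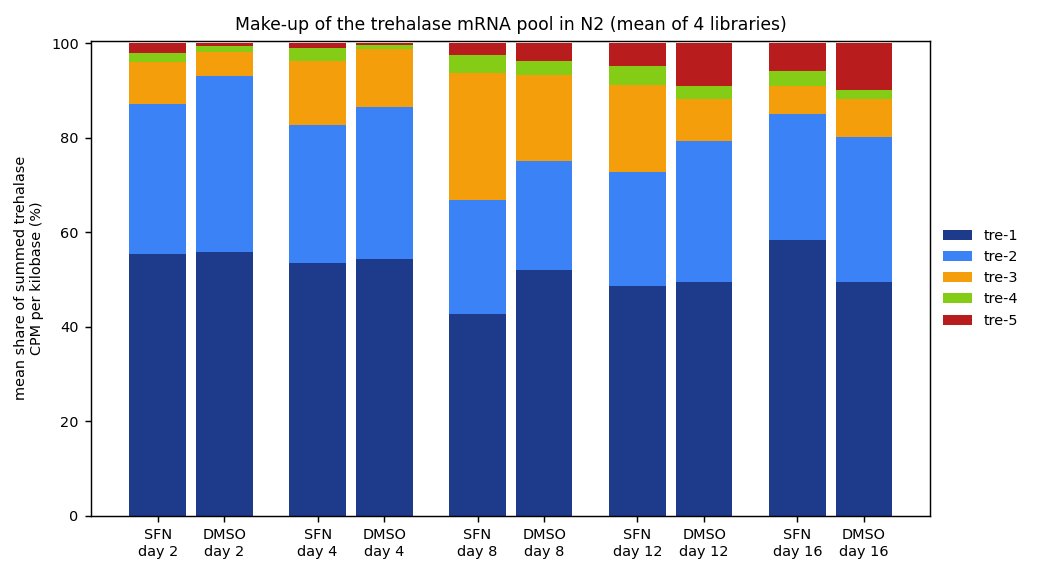
Share of each trehalase gene in the summed trehalase level (percent of CPM per kb, mean of 4 libraries per bar) in N2 worms on SFN and on DMSO at days 2 to 16. The tre-1 part makes up 42.7 to 58.4% of each bar, and the tre-3 part peaks at day 8, at 26.8% on SFN and 18.2% on DMSO.

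The first question was which members SFN changes in the wild type, and the clearest answer came at day 12. Both synthase genes, the phosphatase gene and the trehalases tre-1 and tre-3 rose in N2 worms on SFN, and no member fell (edgeR quasi-likelihood test, adjusted p under 0.05 over all 12735 genes tested). The 5 of 8 members called higher compare with 13.8% of all genes tested. The members' median fold change was 0.92 on the log2 scale, beside 0.0047 for all genes tested. In bulk RNA of whole worms, fewer cells of a type and less RNA per cell cannot be told apart. The N2 DMSO libraries of day 12 held 10.6 to 12.5 M counts and the SFN libraries 3.68 to 8.62 M. Those of day 16 held 8.11 to 10.4 M and 3.23 to 5.89 M. Column names of this set also carry letter and number codes, whose numbers differ between SFN and DMSO at every age but day 8. At day 8 the letters differ between SFN and DMSO. What the codes stand for is not given, so whatever they mark cannot be told apart from SFN at any age of this set.

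On the side of synthesis, gob-1 stood at 56.9, 55.3, 51.8 and 39.3 CPM in the SFN libraries of day 12, against 23.8, 20.2, 25.3 and 25.8 CPM in the DMSO libraries. Every SFN library lay above every DMSO library, and the log2 fold change was 1.097 ± 0.15 (SE of 4 against 4 libraries; edgeR adjusted p = 1.89e-07). The synthase gene tps-2 showed 60.5, 60.1, 55.1 and 44.05 CPM on SFN and 27.4, 31.4, 27.7 and 29.6 CPM on DMSO. Again the groups were apart, with a rise of 0.92 ± 0.18 (edgeR adjusted p = 9.38e-05). Its partner tps-1 had 52.7, 44.6, 32.5 and 35.4 CPM on SFN and 21.98, 24.3, 19.1 and 22.15 CPM on DMSO. These groups did not overlap either, and SFN replicates 1 and 2 were the highest. The rise of tps-1 was 0.92 ± 0.27 (edgeR adjusted p = 0.0108), and it missed the threshold without SFN replicate 1 (0.71, adjusted p = 0.10).

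On the side of breakdown, tre-3 moved most. It had 44.1, 40.3, 34.4 and 32.4 CPM in SFN worms of day 12, against 13.1, 12.4, 12.1 and 12.9 CPM in DMSO worms. The DMSO libraries lay close together and far below every SFN library, and the rise was 1.58 ± 0.25 (edgeR adjusted p = 2.19e-06). The abundant trehalase tre-1 had 112, 124, 111 and 98.6 CPM on SFN and 68.3, 79.2, 80.2 and 85.3 CPM on DMSO. The groups were apart, with a smaller rise of 0.51 ± 0.13 (edgeR adjusted p = 0.00254). The calls of gob-1, tps-2, tre-1 and tre-3 were kept when each of the 8 libraries was left out in turn.

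The remaining trehalases did not pass at day 12. The lowly counted tre-4 showed 9.16, 10.5, 6.995 and 7.30 CPM on SFN and 4.835, 2.32, 4.14 and 3.95 CPM on DMSO. Its groups did not overlap, and its difference of 1.15 ± 0.42 just missed the threshold (edgeR adjusted p = 0.0506). It was called by DESeq2 (adjusted p = 0.0114), by limma-voom (0.00117), with DESeq2-type size factors (0.0438), from the 2 groups alone (0.00391) and without the 2 shallow DMSO libraries (0.0248). The difference of tre-2 was 0.23 ± 0.12 (edgeR adjusted p = 0.197; limma-voom, 0.0179), with overlapping groups. That of tre-5 was -0.38 ± 0.35 (edgeR adjusted p = 0.518), with 11.7, 9.93, 11.5 and 9.36 CPM on SFN and 19.8, 13.1, 9.44 and 13.2 CPM on DMSO. The SFN values of tre-5 lay within or just below the DMSO range.

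At day 16, tre-1, tre-2, tre-4, tps-1 and tps-2 rose on SFN, 5 of 8 members against 11.9% of all genes called higher. The members' median was 0.51 on the log2 scale, beside -0.0114 for all genes tested. The firmest was tre-1, at 117, 118, 97.96 and 91.03 CPM on SFN and 66.8, 54.25, 77.7 and 41.5 CPM on DMSO. Its groups were apart, and the rise of 0.82 ± 0.13 (edgeR adjusted p = 4.75e-06) was kept without each of the 8 libraries. For tre-2, values were 52.3, 42.8, 46.2 and 45.2 CPM on SFN and 38, 35.04, 32.3 and 35.1 CPM on DMSO. It rose by 0.41 ± 0.12 (edgeR adjusted p = 0.0141), and this was lost without SFN replicate 1 (adjusted p = 0.075) and with no filter on low counts (0.108).

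The synthase gene tps-2 had 38.25, 50.04, 37.5 and 40.4 CPM on SFN at day 16 and 20.97, 27.65, 29.6 and 30.6 CPM on DMSO. The groups did not overlap and the rise was 0.61 ± 0.18 (edgeR adjusted p = 0.0139), lost without DMSO replicate 1 (0.0692) or SFN replicate 2 (0.0753). For tps-1 the values were 39.02, 43.7, 24.2 and 26.9 CPM on SFN and 14.9, 15.7, 21.5 and 22.8 CPM on DMSO. SFN replicates 1 and 2 stood well above the other SFN libraries, which were only just above the highest DMSO library. The rise was 0.84 ± 0.28 (edgeR adjusted p = 0.0255), and leaving out DMSO replicate 1 (0.0820), DMSO replicate 2 (0.0777), SFN replicate 1 (0.0887) or SFN replicate 2 (0.119) ended the call. For tre-4, with 4.23, 4.70, 5.70 and 5.15 CPM on SFN and 1.80, 2.32, 2.40 and 1.38 CPM on DMSO, the rise was 1.31 ± 0.46 (edgeR adjusted p = 0.0363). Although its groups were apart, the call was lost without 7 of the 8 libraries in turn, all but DMSO replicate 3, with adjusted p up to 0.106.

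The phosphatase gene and tre-3 no longer passed at day 16. With 30.75, 38.1, 25.8 and 28.05 CPM on SFN and 21.7, 21.6, 26.2 and 23 CPM on DMSO, gob-1 differed by 0.40 ± 0.16 (edgeR adjusted p = 0.0646). Only DMSO replicate 3 reached into the SFN range. It was called without DMSO replicate 3 (0.0464), without SFN replicate 3 (0.0437), by limma-voom (0.0378) and without the 2 shallow libraries (0.0440). For tre-3, with 9.03, 11.04, 8.23 and 10.3 CPM on SFN and 8.645, 10.98, 6.61 and 7.47 CPM on DMSO, the groups overlapped (0.18 ± 0.28, edgeR adjusted p = 0.705). The change of tre-5 was -0.19 ± 0.36 (edgeR adjusted p = 0.768).

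**Figure D2:**
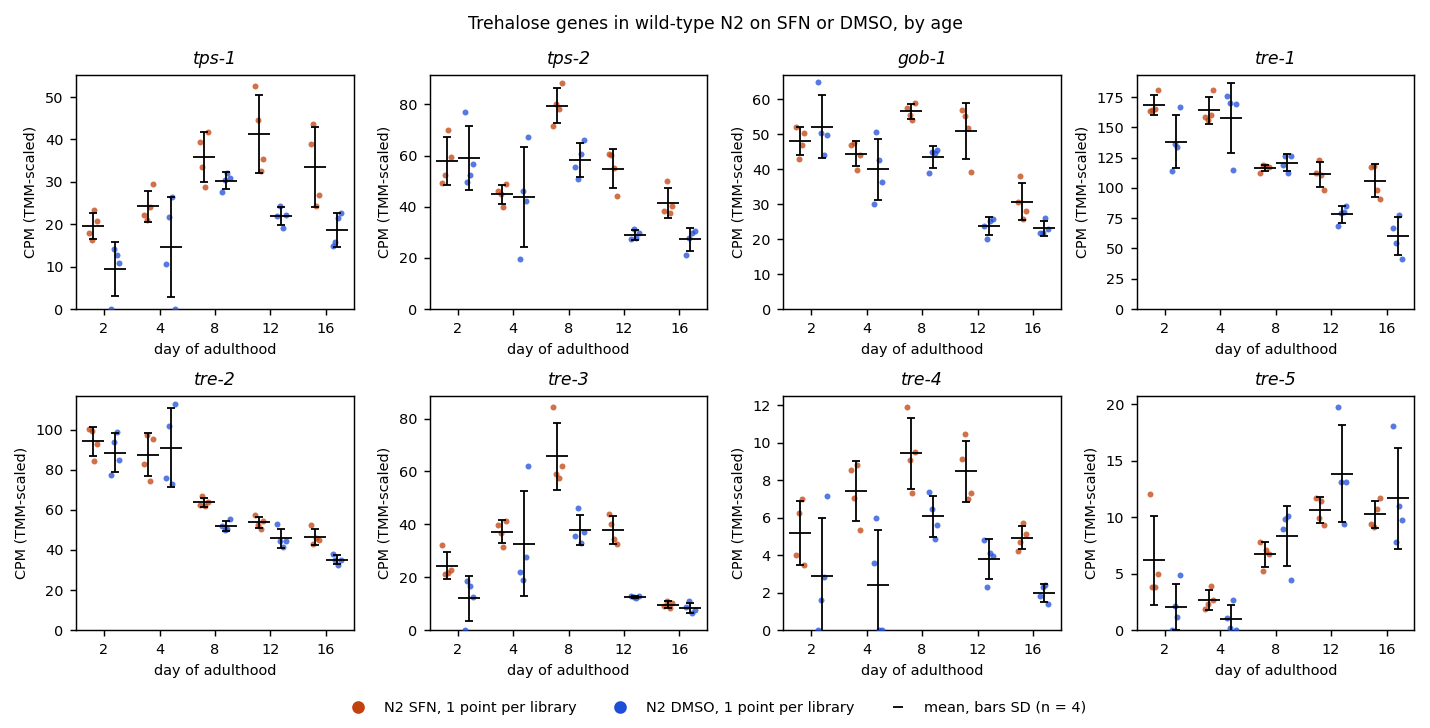
Level of each of the 8 members (CPM per library, linear axis from 0) in N2 worms at days 2 to 16, with SFN left of DMSO at each age, points for libraries and bars for mean ± SD (n = 4). At day 12 the SFN libraries of tps-1, tps-2, gob-1, tre-1, tre-3 and tre-4 lie above all DMSO libraries, and the tre-3 means peak at day 8.

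At younger ages no member passed the edgeR test. At day 2, 0 of 8 members were called against 4.33% of all genes in either direction, with an unadjusted p under 0.05 for 3 members. The SFN libraries of tps-1 had 18.1, 16.3, 23.3 and 20.8 CPM at day 2, and the DMSO libraries had 0, 14.1, 12.8 and 10.8 CPM. The groups did not overlap, and the difference was 0.79 ± 0.32 (edgeR adjusted p = 0.159; DESeq2, 0.0427). The differences of tre-3, 0.71 ± 0.28, and tre-5, 1.15 ± 0.48, had adjusted p = 0.150 and 0.172 with edgeR. The DMSO zeros belong to the shallow replicate 1, and without DMSO replicate 4 tre-5 was called (1.78, edgeR adjusted p = 0.0398). By limma-voom, tre-1 was called at day 2 (0.32, adjusted p = 0.0335), while edgeR gave 0.27 ± 0.13 (0.269). For tps-2, gob-1, tre-2 and tre-4 the fold changes were 0.05, -0.08, 0.06 and 0.63 (edgeR adjusted p from 0.530 to 0.929).

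At day 4, again 0 of 8 members were called, against 10.3% of all genes in either direction, with 2 members at an unadjusted p under 0.05. These were tre-4 (1.23 ± 0.50, edgeR adjusted p = 0.1; DESeq2, 0.0309) and tre-5 (1.29 ± 0.61, edgeR adjusted p = 0.169). Of the DMSO libraries, replicates 2 and 4 had 0 counts of tre-4, and without DMSO replicate 3 it was called (1.97, edgeR adjusted p = 0.0141). For tre-3 the values were 39.7, 36.8, 31.4 and 41.2 CPM on SFN and 22.03, 27.5, 19.1 and 61.98 CPM on DMSO. DMSO replicate 4, a shallow library, was above every SFN library and the other DMSO libraries were below them. Without DMSO replicate 4 tre-3 was called at day 4 (0.72, edgeR adjusted p = 0.0447), as it was without both shallow libraries (0.00669), and with every library its difference was 0.43 ± 0.27 (0.317). For tps-1, tps-2, gob-1, tre-1 and tre-2 the fold changes ran from -0.01 to 0.48 (edgeR adjusted p from 0.337 to 0.987).

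At day 8, 0 of 8 members were called against 3.53% of all genes in either direction, with 4 members at an unadjusted p under 0.05. For tre-3, values were 84.5, 58.96, 57.45 and 62.25 CPM on SFN and 35.8, 46.1, 32.8 and 36.99 CPM on DMSO. The groups were apart, and the difference was 0.80 ± 0.24 (edgeR adjusted p = 0.0543). For tps-2, with 71.8, 80.1, 78.2 and 88.3 CPM on SFN and 55.4, 51.02, 60.7 and 66.1 CPM on DMSO, the difference was 0.46 ± 0.18 (edgeR adjusted p = 0.230). For gob-1, with 57.6, 55.6, 54.15 and 58.9 CPM on SFN and 38.95, 44.8, 44.7 and 45.4 CPM on DMSO, it was 0.39 ± 0.16 (edgeR adjusted p = 0.251). For tre-2 it was 0.30 ± 0.12 (edgeR adjusted p = 0.281). In each of these 4 genes every SFN library exceeded every DMSO library. All 4 were called by limma-voom (adjusted p from 1.57e-07 to 0.00755) and from the 2 groups alone (0.000742 to 0.0188). The 3.53% holds for the main test only, and the share of all genes called under these other settings is not given here. For tre-3 the call was also made by DESeq2 (0.0191), and by edgeR with DESeq2-type size factors (0.0455), with no filter on low counts (0.0127) and without the 2 shallow libraries (0.000836). The fold changes of tps-1, tre-1, tre-4 and tre-5 at day 8 were 0.25, -0.05, 0.62 and -0.36 (edgeR adjusted p of at least 0.847). The members' median fold changes at days 2, 4 and 8 were 0.448, 0.307 and 0.343 on the log2 scale, beside 0.0734, 0.0956 and -0.0171 for all genes.

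Whether the SFN effect itself differed with age was tested by the difference of effects. Between day 12 and day 4, gob-1 alone passed, 1 of 8 members against 3.39% of all genes in the same direction. Its effect at day 12 exceeded that at day 4 by 0.96 ± 0.23 on the log2 scale (edgeR adjusted p = 0.005), and the call was kept without each of the 16 libraries in turn. At day 4 its values were 46.8, 47.5, 39.8 and 43.9 CPM on SFN and 30.1, 42.7, 50.6 and 36.5 CPM on DMSO, and these overlapped. For tre-3 the difference of effects was 1.15 ± 0.37 (edgeR adjusted p = 0.0595). It was called by DESeq2 (0.0163), with no filter on low counts (0.0328) and without the shallow libraries (0.0342), where its size was 0.81. It was also called without DMSO replicate 1 (0.0284) or DMSO replicate 3 (0.0251) of day 4. For tps-2 it was 0.74 ± 0.27 (edgeR adjusted p = 0.116), called without DMSO replicate 1 of day 4 (1.03, adjusted p = 0.00257). For tre-1 it was 0.45 ± 0.18 (edgeR adjusted p = 0.185), called without DMSO replicate 2 of day 4 (0.0486). For tps-1, tre-2, tre-4 and tre-5 it was 0.44, 0.24, -0.09 and -1.67 (edgeR adjusted p from 0.202 to 0.989). Between day 16 and day 2, 0 of 8 members passed, against 7.88% of all genes in either direction, with 4 members at an unadjusted p under 0.05. The nearest was tre-1 (0.55 ± 0.19, edgeR adjusted p = 0.0558). Without DMSO replicate 1 (0.0487) or 3 (0.0105) of day 16, SFN replicate 4 of day 16 (0.0400) or DMSO replicate 1 of day 2 (0.0293) it was called. For tre-5 the difference was -1.34 ± 0.60 (edgeR adjusted p = 0.181), called without DMSO replicate 4 of day 2 (0.0381). For tps-2, gob-1, tre-2 and tre-4 it was 0.56, 0.48, 0.35 and 0.68, for tps-1 0.05 and for tre-3 -0.52 (edgeR adjusted p from 0.214 to 0.991). By limma-voom tre-1 (0.0341), tre-2 (0.0269) and tre-5 (0.0295) were called. The members' medians were 0.443 for day 12 against day 4 and 0.416 for day 16 against day 2, beside -0.0186 and -0.0504 for all genes.

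**Figure D3:**
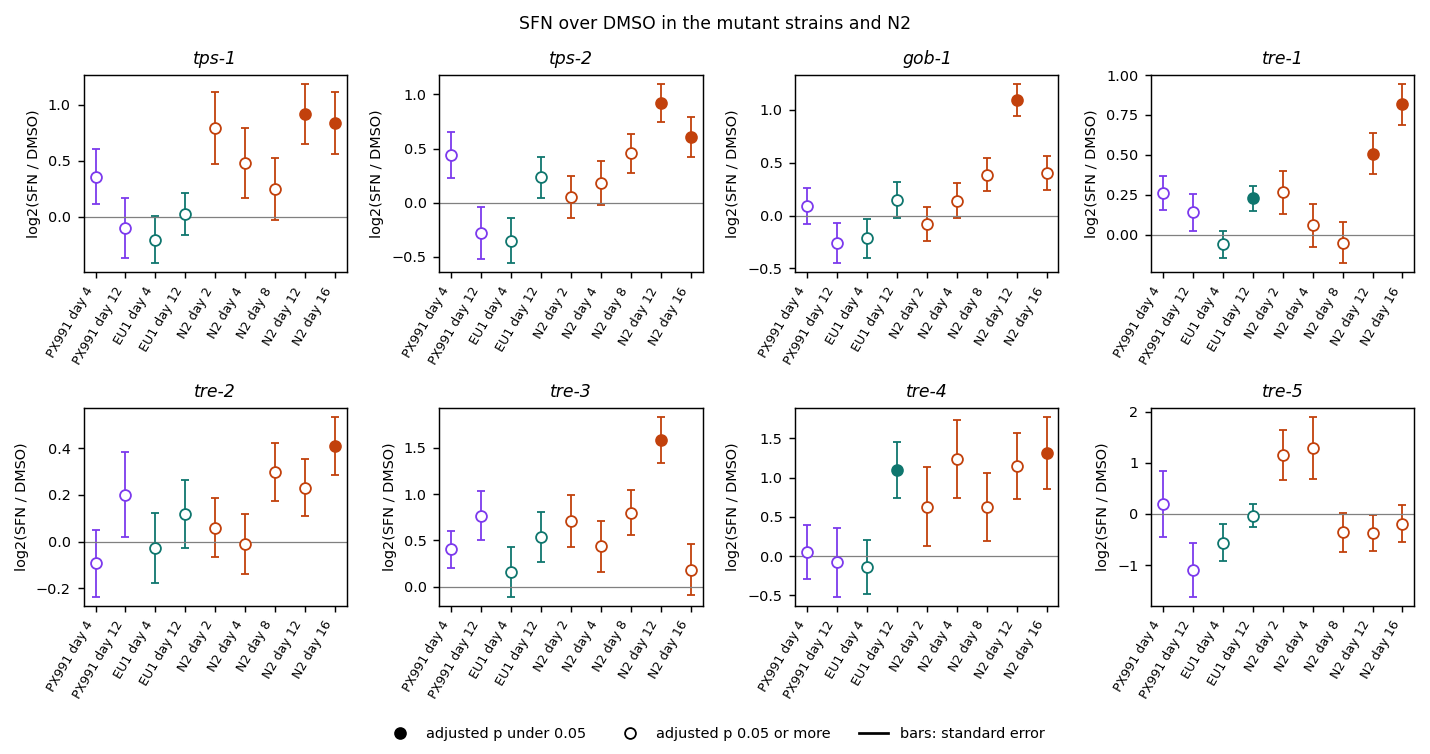
Log2 fold change of SFN over DMSO (± SE) for each member, in PX991 and EU1 at days 4 and 12 and in N2 at days 2 to 16, with filled points for adjusted p under 0.05. In N2 the filled points appear at days 12 and 16, and in the mutants only tre-1 and tre-4 of EU1 at day 12 are filled.

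In PX991, the daf-16 mutant, no member was called at either age by edgeR, and DESeq2 and limma-voom called 0 as well. At day 12, 0 of 8 members passed against 4.69% of all genes in either direction, with 2 at an unadjusted p under 0.05. The phosphatase gene gob-1 had 36.3, 25.5, 34.1 and 28.1 CPM on SFN and 40.6, 28.8, 42.7 and 34.9 CPM on DMSO, and tps-2 had 23.2, 25.98, 32.5 and 14.03 CPM on SFN and 29.3, 25.8, 28.5 and 25.8 CPM on DMSO. For both the groups overlapped, with differences of -0.26 ± 0.19 (edgeR adjusted p = 0.490) and -0.28 ± 0.24 (0.565). The values of tps-1 were 19.4, 22.3, 25.97 and 26.96 CPM on SFN and 30.2, 18.5, 26.7 and 26.6 CPM on DMSO (-0.10 ± 0.27, edgeR adjusted p = 0.883).

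Among the trehalases of PX991 at day 12, tre-3 had 30.1, 18.2, 30.8 and 25.1 CPM on SFN and 20.1, 10.8, 8.90 and 19.1 CPM on DMSO. SFN replicate 2 fell between the DMSO values and the others lay above them, with a difference of 0.76 ± 0.26 (edgeR adjusted p = 0.102). For tre-5 it was -1.09 ± 0.53 (edgeR adjusted p = 0.260), with 5.635, 5.195, 1.62 and 7.385 CPM on SFN and 18.4, 6.92, 16.03 and 5.815 CPM on DMSO. For tre-1, tre-2 and tre-4 the fold changes were 0.14, 0.20 and -0.08 (edgeR adjusted p from 0.547 to 0.949). SFN replicate 3 of this group was the shallowest PX991 library, at 0.585 M counts, and showed 15327 genes at the common depth, the most of its group. At day 4, 0 of 8 passed against 0.506% of all genes in either direction, with 2 at an unadjusted p under 0.05. These were tre-1, at 218, 226, 209 and 225 CPM on SFN and 173, 189, 179 and 192 CPM on DMSO (0.26 ± 0.11, edgeR adjusted p = 0.645), and tps-2, at 44.7, 27.4, 27.1 and 30.4 CPM on SFN and 24.4, 25.9, 23.3 and 21.8 CPM on DMSO (0.44 ± 0.21, 0.837). Both had groups that did not overlap. For tre-3 the difference was 0.40 ± 0.20 (edgeR adjusted p = 0.859), and for tps-1, gob-1, tre-2, tre-4 and tre-5 it ran from -0.09 to 0.36 (0.999 each). The members' medians were 0.228 at day 4 and -0.0898 at day 12, beside 0.0188 and -0.0156 for all 10073 genes tested.

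The SFN effects of PX991 and N2 were then compared directly. At day 12 the effect was lower in PX991 for gob-1 and tps-2, 2 of 8 members against 2.96% of all genes in the same direction. The effect of gob-1 differed by -1.29 ± 0.27 on the log2 scale (edgeR adjusted p = 0.00296), and this call was kept without each of the 16 libraries. That of tps-2 differed by -1.14 ± 0.34 (edgeR adjusted p = 0.0468). This call was lost without 14 of the 16 libraries in turn, all but PX991 SFN replicate 3 and N2 SFN replicate 4, with differences as near 0 as -0.89 and adjusted p up to 0.175. It was also lost with the replicate block (0.0581), with DESeq2-type size factors (0.0596) and with no filter on low counts (0.0707). The scaling was recomputed each time a library was left out, and with the genes and scale factors of the full fit kept, a setting chosen after seeing the data, it was lost without 13 of the 16. For tps-1 the difference was -0.95 ± 0.40 (edgeR adjusted p = 0.170) and for tre-3 it was -0.74 ± 0.43 (0.343). The differences of tre-1, tre-2, tre-4 and tre-5 were -0.30, 0.03, -1.11 and -0.64 (edgeR adjusted p from 0.314 to 0.965). At day 4, 0 of 8 members passed against 0.254% of all genes in either direction, and none had an unadjusted p under 0.05. The differences at day 4 ran from -1.19 for tre-4 to 0.30 for tps-2, and DESeq2 and limma-voom called 0. Medians of the difference were -0.0701 at day 4 and -0.849 at day 12 over the members, and -0.111 and 0.00737 over all 12589 genes.

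In EU1, the skn-1 mutant, tre-1 and tre-4 rose on SFN at day 12, 2 of 8 members against 11.2% of all genes called higher. The SFN libraries of tre-1 had a lowest, median and highest value of 112, 122 and 149 CPM, and the DMSO libraries had 87.3, 107.8 and 127 CPM. The groups overlapped, though 6 of 6 SFN libraries lay above the DMSO mean, and the rise was 0.23 ± 0.08 (edgeR with a collection term, adjusted p = 0.0459). This main fit did not pair the same numbered EU1 replicates, and with the replicate as a block the edgeR adjusted p was 0.0585. It was 0.0530 by DESeq2, 0.0628 with DESeq2-type size factors, 0.176 with no filter on low counts and 0.112 with neither block nor collection term. The tre-1 call was also lost without 10 of 12 libraries in turn, all but DMSO replicate 2 and SFN replicate 3 (adjusted p up to 0.128). The values of tre-4 were 3.99, 5.56 and 8.19 CPM on SFN and 1.48, 2.48 and 5.10 CPM on DMSO. These overlapped too, with 6 of 6 SFN libraries above the DMSO mean and a rise of 1.09 ± 0.36 (edgeR adjusted p = 0.0345). That call was lost without 7 of 12 libraries, namely DMSO replicates 3, 4, 5 and 6 and SFN replicates 2, 4 and 5 (adjusted p up to 0.102).

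The genes of synthesis did not pass in EU1 at day 12. The lowest, median and highest values of gob-1 were 22.4, 27.1 and 30.5 CPM on SFN and 19.2, 23.2 and 31.7 CPM on DMSO (0.15 ± 0.17, edgeR adjusted p = 0.576). Those of tps-2 were 31.8, 33.9 and 42.9 CPM on SFN and 24.8, 29.5 and 38 CPM on DMSO (0.23 ± 0.19, edgeR adjusted p = 0.411). Those of tps-1 were 21.8, 29.9 and 35.1 CPM on SFN and 21.4, 30.8 and 33.9 CPM on DMSO (0.02 ± 0.19, edgeR adjusted p = 0.946). In all 3 genes the groups overlapped. The range of tre-3 was 8.10 to 27.8 CPM on SFN and 8.625 to 17.8 CPM on DMSO (0.54 ± 0.27, edgeR adjusted p = 0.171; limma-voom, 0.0402; no filter on low counts, 0.0384). The fold change was 0.12 for tre-2 (edgeR adjusted p = 0.597) and -0.03 for tre-5 (0.938). At day 4, 0 of 8 members passed against 0.251% of all genes in either direction, and none had an unadjusted p under 0.05. The fold changes ran from -0.57 for tre-5 to 0.16 for tre-3 (edgeR adjusted p of at least 0.461), and DESeq2 and limma-voom called 0. Medians of the members were -0.174 at day 4 and 0.188 at day 12, and those of all 11170 genes were -0.0147 and -0.000269.

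Against N2, the SFN effect at day 12 was lower in EU1 for gob-1, 1 of 8 members against 1.11% of all genes in the same direction. The difference was -0.93 ± 0.23 (edgeR adjusted p = 0.0285). It was lost without 13 of 20 libraries in turn (N2 DMSO replicates 1, 2 and 3, N2 SFN replicates 1, 2 and 3, EU1 DMSO replicates 2, 4 and 5, and EU1 SFN replicates 3 to 6), with adjusted p up to 0.127, and with no filter on low counts (-0.78, adjusted p = 0.167). With the genes and scale factors of the full fit kept it was lost without 8 of 20, with adjusted p up to 0.0950. For tre-3 the difference was -1.03 ± 0.36 (edgeR adjusted p = 0.130), for tps-1 it was -0.88 ± 0.34 (0.177) and for tps-2 it was -0.67 ± 0.29 (0.223). These 3 were called by limma-voom (adjusted p from 0.00472 to 0.0173). The differences of tre-1, tre-2, tre-4 and tre-5 were -0.27, -0.10, -0.04 and 0.36 (edgeR adjusted p from 0.352 to 0.985). At day 4, 0 of 8 members passed against 9.6% of all genes in either direction, with 2 at an unadjusted p under 0.05, tre-4 (-1.36 ± 0.61, edgeR adjusted p = 0.145) and tre-5 (-1.83 ± 0.76, 0.113). By DESeq2 tre-5 was called (0.0497) and by limma-voom tps-2 (0.0448). Without N2 DMSO replicate 2 of day 4, edgeR called tre-5 (0.0361), and without N2 DMSO replicate 3 it called tre-4 (0.0262). The differences of the other 6 at day 4 ran from -0.69 for tps-1 to 0.01 for tre-2. Medians were -0.405 at day 4 and -0.469 at day 12 over the members, and -0.128 and -0.12 over all genes. Both mutant comparisons share the N2 libraries, so they are not independent of each other. The tables of N2 and of the mutants were also counted separately, so that a strain cannot be told apart from its table in a level, though each effect is a difference within a table.

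**Figure D4:**
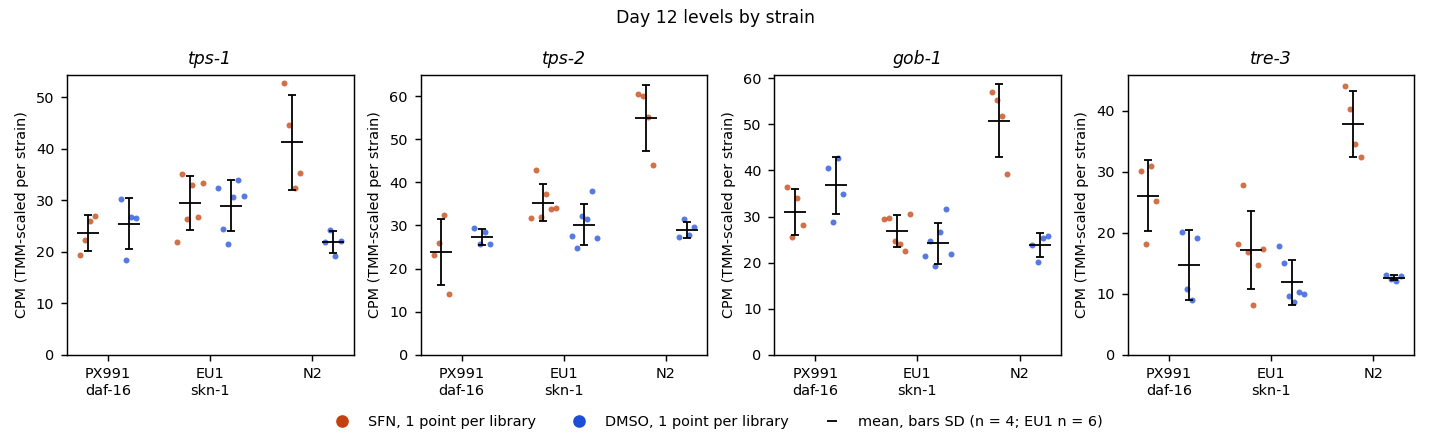
Level at day 12 (CPM per library, with mean ± SD) of tps-1, tps-2, gob-1 and tre-3 in PX991, EU1 and N2, with SFN left of DMSO in each strain. In N2 the SFN libraries lie above the DMSO libraries in each panel, and in both mutants the 2 groups overlap.

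Most members changed with age, and the direction differed between them. The codes in the column names of the treatment set also differ between the ages compared, so whatever they mark cannot be told apart from age. In N2 worms on DMSO, tre-1, tre-2, tre-3, gob-1 and tps-2 fell by day 16, and tre-5 and tps-1 rose. Between day 16 and day 2, 5 of 8 members were called lower against 22.8% of all genes, and 2 of 8 were called higher against 29.9%. The libraries of tre-2 had 38, 35.04, 32.3 and 35.1 CPM at day 16 and 77.2, 93.8, 98.6 and 84.7 CPM at day 2, with a log2 fold change of -1.36 ± 0.12 (edgeR adjusted p = 8.05e-13). Every day 16 library was far below every day 2 library. The change was -1.22 ± 0.13 for tre-1 (edgeR adjusted p = 1.07e-10), -1.12 ± 0.16 for gob-1 (9.26e-08) and -1.05 ± 0.19 for tps-2 (6.86e-06), all with groups that did not overlap. The change of tre-3 was -0.78 ± 0.27 (edgeR adjusted p = 0.0155). Its day 2 values of 0, 18.8, 16.6 and 12.6 CPM enclosed those of day 16, with the 0 in the shallow library. The tre-3 call was lost without DMSO replicate 3 of day 16 (0.0518) or replicates 2 (0.118) or 3 (0.0714) of day 2, and from the 2 groups alone (0.491).

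The rise of tre-5 was the steepest. It had 18.1, 7.81, 11.02 and 9.77 CPM at day 16 on DMSO, against 0, 2.145, 1.17 and 4.88 CPM at day 2. The groups did not overlap, and the fitted change of 2.27 ± 0.43 (edgeR adjusted p = 2.06e-05) includes the 0 of the shallow library. The rise of tps-1 was 0.71 ± 0.30 (edgeR adjusted p = 0.0456). It was lost without replicate 3 (0.1005) or 4 (0.115) of day 16 or replicate 1 (0.0659) or 4 (0.0766) of day 2, by limma-voom (0.238) and from the 2 groups alone (0.182). The change of tre-4 was -0.77 ± 0.49 (edgeR adjusted p = 0.184). Without the 2 shallow libraries the same 7 members were called. Over the 8 members the median was -0.916, beside 0.114 for all genes.

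Between day 12 and day 4 on DMSO, 4 of 8 members were called lower against 19.5% of all genes and 1 of 8 higher against 25.5%. The falling members changed by -1.13 ± 0.27 for tre-3 (edgeR adjusted p = 0.00056), -1.005 ± 0.13 for tre-1 (2.47e-08), -0.95 ± 0.12 for tre-2 (2.66e-08) and -0.77 ± 0.16 for gob-1 (0.000126). From the 2 groups alone gob-1 missed (0.0737). The riser was tre-5, by 3.68 ± 0.50 (edgeR adjusted p = 6.36e-08). Of the day 4 libraries behind this change, the shallow one had 0 counts of tre-5, and the change was 4.49 without replicate 2 of day 4 and 3.14 without replicate 3. For tps-2 the change was -0.45 ± 0.19 (edgeR adjusted p = 0.0551), called without DMSO replicate 1 of day 4 (-0.74, adjusted p = 0.000594). Without the 2 shallow libraries the same 5 members were called. For tps-1 the change was 0.35 ± 0.29 (edgeR adjusted p = 0.342) and for tre-4 0.27 ± 0.47 (0.671). The members' median was -0.606, beside 0.0887 for all genes.

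In N2 worms on SFN, tre-1, tre-2, tre-3, gob-1 and tps-2 also fell by day 16, and tps-1 rose. Between day 16 and day 2, 5 of 8 members were called lower against 14% of all genes and 1 of 8 higher against 17.8%. The changes were -1.30 ± 0.29 for tre-3 (edgeR adjusted p = 0.00033), -1.01 ± 0.13 for tre-2 (1.01e-08), -0.67 ± 0.13 for tre-1 (7.09e-05), -0.64 ± 0.16 for gob-1 (0.00176) and -0.50 ± 0.19 for tps-2 (0.0372). The rise of tps-1 was 0.75 ± 0.30 (edgeR adjusted p = 0.0456). The call of tps-1 was lost without 6 of 8 libraries in turn, all but SFN replicates 3 and 4 of day 16 (adjusted p up to 0.158), and that of tps-2 without 5 of 8, SFN replicates 1, 3 and 4 of day 16 and 3 and 4 of day 2 (up to 0.160). For tps-2 it was also lost by DESeq2 (0.0788), with DESeq2-type size factors (0.0753) and with no filter on low counts (0.0567). The change of tre-5 was 0.93 ± 0.41 (edgeR adjusted p = 0.0816). SFN replicate 1 of day 2, at 12.0 CPM, stood above the other day 2 libraries of 3.83 to 4.99 CPM, and without it tre-5 was called (1.26, adjusted p = 0.0227). It was also called by DESeq2 (0.0303), by limma-voom (0.00159), from the 2 groups alone (0.0119) and without the shallow DMSO libraries (0.0430). For tre-4 the change was -0.09 ± 0.47 (edgeR adjusted p = 0.913). The difference between the treatments over these ages passed for no member. The median over the members was -0.571, beside 0.0519 for all genes.

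Between day 12 and day 4 on SFN, 2 of 8 members were called lower against 10.2% of all genes and 2 of 8 higher against 14.8%. These were tre-2 at -0.70 ± 0.12 (edgeR adjusted p = 2.63e-05), tre-1 at -0.56 ± 0.13 (0.00117), tre-5 at 2.01 ± 0.45 (0.000693) and tps-1 at 0.79 ± 0.29 (0.0400). The tps-1 call was lost without SFN replicates 1 (0.152) or 2 (0.0820) of day 12, or 1 (0.0916), 2 (0.115) or 3 (0.0766) of day 4. For gob-1 the change was 0.19 ± 0.16 (edgeR adjusted p = 0.422), the interval in which its SFN effect differed between the ages. For tps-2, tre-3 and tre-4 it was 0.29, 0.02 and 0.18 (edgeR adjusted p from 0.270 to 0.964), though limma-voom called tps-2 (0.0484). The members' median was 0.186, beside 0.0575 for all genes.

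Libraries of trials 2 and 3 gave the same ages in N2 worms on DMSO, outside the treatment set. With trial as a term, 6 of 8 members were lower at day 16 than at day 2, against 31% of all genes, and 2 of 8 were higher, against 32.7%. The changes were -1.50 ± 0.20 for tre-3 (edgeR adjusted p = 2.62e-08), -1.35 ± 0.10 for tre-2 (3.92e-15), -1.03 ± 0.06 for tre-1 (5.32e-18), -0.77 ± 0.24 for tre-4 (0.00582), -0.64 ± 0.13 for gob-1 (4.37e-05) and -0.39 ± 0.17 for tps-2 (0.0465). The rise was 2.07 ± 0.36 for tre-5 (edgeR adjusted p = 3.02e-06) and 0.56 ± 0.17 for tps-1 (0.00461). The median of the 8 was -0.704, beside 0.0326 for all 10899 genes. Over both trials tre-1 ran from 82.3 to 124 CPM at day 16 and from 190 to 235.4 CPM at day 2. Its partner tre-2 ran from 26.4 to 56.8 CPM at day 16 and from 80.7 to 115.5 CPM at day 2. For both, the ages were far apart.

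The changes between days 16 and 2 were also taken trial by trial. At day 16 the tps-1 libraries of trial 2 had 57.4, 48.9, 51.6 and 67.2 CPM and those of trial 3 had 18.75, 25.9, 22.5 and 20.2 CPM. At day 2 they had 25.5, 27.7, 23.8 and 22.7 CPM in trial 2 and 21.55, 25.5, 23.4 and 29.5 CPM in trial 3. The old worms of trial 2 thus stood far above all others, and the change was 1.16 ± 0.16 in trial 2 alone (edgeR adjusted p = 9.39e-07) and -0.19 ± 0.23 in trial 3 alone (0.522). For tps-2 it was 0.20 ± 0.16 in trial 2 (edgeR adjusted p = 0.286) and -1.09 ± 0.21 in trial 3 (8.97e-05). For gob-1 it was -0.26 ± 0.13 in trial 2 (edgeR adjusted p = 0.102) and -1.02 ± 0.19 in trial 3 (4.72e-05), and for tre-4 it was -0.42 ± 0.31 (0.248) and -1.16 ± 0.34 (0.00589). The pooled call of tps-2 was also lost without 10 of 16 libraries in turn: replicate 1 of day 16 and replicate 2 of day 2 in trial 2, and all 8 of these ages in trial 3 (adjusted p up to 0.111). It was lost too with DESeq2-type size factors (0.0522) and with no filter on low counts (0.0637). The trehalases tre-1, tre-2, tre-3 and tre-5 were called in the same direction in each trial. The difference between the trials was not tested.

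At day 12 against day 4 in these trials, 4 of 8 members were lower against 27.3% of all genes, and 2 of 8 were higher against 28%. The changes were -1.46 ± 0.24 for tre-4 (edgeR adjusted p = 1.18e-06), -1.24 ± 0.19 for tre-3 (4.78e-07), -0.86 ± 0.10 for tre-2 (1.13e-09), -0.62 ± 0.06 for tre-1 (2.34e-11), 2.89 ± 0.37 for tre-5 (1.26e-08) and 0.58 ± 0.17 for tps-1 (0.00374). In trial 3 alone tps-1 missed (0.48, adjusted p = 0.0764). Neither gob-1 (-0.08 ± 0.13, edgeR adjusted p = 0.624) nor tps-2 (-0.04 ± 0.17, 0.864) passed. The members' median was -0.35, beside 0.019 for all genes.

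**Figure D5:**
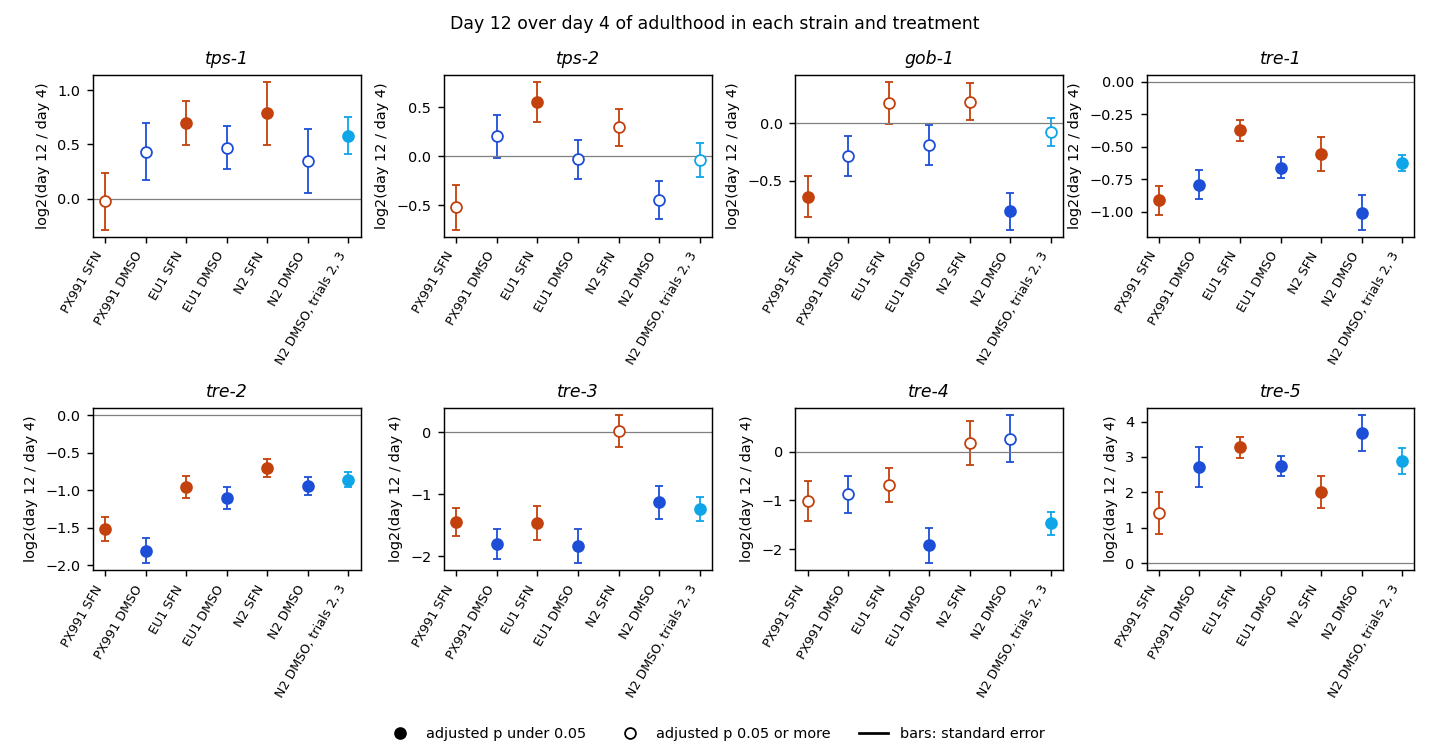
Log2 fold change of day 12 over day 4 (± SE) for each member, in PX991 and EU1 on SFN and on DMSO, in N2 on SFN and on DMSO, and in the N2 DMSO worms of trials 2 and 3, with filled points for adjusted p under 0.05. The points of tre-1 and tre-2 lie below 0 and filled in all 7 settings, and those of tre-5 lie above 0 in all 7, filled in all but PX991 on SFN.

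In both mutants tre-1, tre-2 and tre-3 fell with age on both treatments. In PX991 on SFN, 4 of 8 members were lower at day 12 than at day 4, against 16.8% of all genes, and none was higher. They were tre-2 at -1.52 ± 0.16 (edgeR adjusted p = 2.39e-07), tre-3 at -1.44 ± 0.22 (3.49e-05), tre-1 at -0.91 ± 0.11 (1.33e-06) and gob-1 at -0.64 ± 0.18 (0.00978). From the 2 groups alone gob-1 missed (0.0569). Without the shallow SFN replicate 3 of day 12, tps-2 (-0.65, adjusted p = 0.0317), tre-4 (-1.37, 0.00816) and tre-5 (1.57, 0.0401) were called too. With every library these 3 had changes of -0.52 ± 0.23 (edgeR adjusted p = 0.0881), -1.01 ± 0.41 (0.0631) and 1.42 ± 0.60 (0.0764), and tps-1 had -0.02 ± 0.26 (0.958). Leaving out SFN replicate 1 of day 4 also brought tre-5 past the threshold (1.94, adjusted p = 0.0296). In PX991 on DMSO, 3 of 8 were lower against 18% of all genes and 1 of 8 higher against 18.1%. These were tre-2 at -1.81 ± 0.16 (edgeR adjusted p = 1.06e-08), tre-3 at -1.81 ± 0.24 (2.95e-06), tre-1 at -0.79 ± 0.11 (6.33e-06) and tre-5 at 2.71 ± 0.57 (0.000691). Without DMSO replicate 2 of day 12, tre-4 was called as well (-1.17, adjusted p = 0.0443). With every library it had -0.88 ± 0.39 (edgeR adjusted p = 0.0802), and tps-1, tps-2 and gob-1 had 0.44, 0.20 and -0.29 (0.195 to 0.504). Members' medians were -0.775 on SFN and -0.538 on DMSO, beside -0.0212 and 0.0162 for all genes.

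In EU1 on SFN, 3 of 8 members were lower at day 12 against 17% of all genes and 3 of 8 higher against 17.3%. The changes of the lower genes were -1.46 ± 0.27 for tre-3 (edgeR adjusted p = 0.000294), -0.96 ± 0.15 for tre-2 (3.74e-05) and -0.37 ± 0.08 for tre-1 (0.00127). The rises were 3.27 ± 0.30 for tre-5 (edgeR adjusted p = 3.03e-08), 0.70 ± 0.20 for tps-1 (0.0103) and 0.55 ± 0.20 for tps-2 (0.0390). The tps-2 call was lost without 8 of 11 libraries in turn, all but SFN replicates 5 and 6 of day 12 and 2 of day 4 (adjusted p up to 0.134). For gob-1 the change was 0.18 ± 0.18 (edgeR adjusted p = 0.477) and for tre-4 -0.69 ± 0.35 (0.128). In EU1 on DMSO, 4 of 8 were lower against 23.4% of all genes and 1 of 8 higher against 22.6%. These were tre-4 at -1.92 ± 0.36 (edgeR adjusted p = 0.000139), tre-3 at -1.84 ± 0.28 (1.31e-05), tre-2 at -1.102 ± 0.15 (2.18e-06), tre-1 at -0.66 ± 0.08 (6.2e-07) and tre-5 at 2.74 ± 0.28 (4.25e-08). For tps-1 the change was 0.47 ± 0.20 (edgeR adjusted p = 0.0522), called by DESeq2 (0.0329), by limma-voom (0.00167) and without DMSO replicate 3 or 6 of either age (0.0113 to 0.0386). For tps-2 it was -0.03 ± 0.20 (edgeR adjusted p = 0.906) and for gob-1 -0.19 ± 0.18 (0.400). In EU1 on DMSO tre-5 was at 7.20, 11.4 and 12.9 CPM (lowest, median and highest) at day 12 and at 1.215, 1.49 and 1.87 CPM at day 4, with no overlap. Members' medians were -0.0972 on SFN and -0.424 on DMSO, beside -0.0107 and 0.0118 for all genes.

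Other genes of sugar metabolism were counted in lists for comparison. Of all genes tested, SFN raised 13.8% at day 12 and 11.9% at day 16 in N2, and 11.2% at day 12 in EU1. In either direction it changed 4.33, 10.3 and 3.53% at days 2, 4 and 8 in N2. The share in either direction was 4.69% in PX991 at day 12 and 0.251% in EU1 at day 4. Of 6 genes of gluconeogenesis and the glyoxylate cycle, SFN raised 3 at day 4, 4 at day 12 and 4 at day 16 in N2, 1 in PX991 at day 12 and 2 in EU1 at day 12, and lowered none. The gene of phosphoenolpyruvate carboxykinase, pck-1, rose by 2.17 ± 0.21 at day 12 in N2, icl-1 of the glyoxylate cycle by 1.82 ± 0.23 and pck-2 by 1.14 ± 0.13 (edgeR adjusted p from 9.1e-11 to 2.2e-07). Of 17 glycolysis genes, 4 rose and 1 fell at day 4, 2 rose at day 8, 6 at day 12 and 7 at day 16, and 1 fell at day 2. In PX991 at day 12, 0 rose and 1 of 16 tested fell, and in EU1 1 of 16 rose at day 4, and 2 rose and 1 fell at day 12. The glyceraldehyde 3-phosphate dehydrogenase gene gpd-3 rose by 1.13 ± 0.14 at day 12 in N2 (edgeR adjusted p = 6.4e-09), gpd-2 by 0.60 ± 0.14 (0.00092), and the triosephosphate isomerase gene tpi-1 by 0.43 ± 0.10 (0.00169). In PX991 at day 12, gpd-2 fell by 1.07 ± 0.22 (edgeR adjusted p = 0.00474).

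Of 6 genes of glycogen, 2 rose at day 4, 0 at day 12 and 4 at day 16 in N2 and 2 in EU1 at day 12, and none fell. At day 16 in N2 these included the glycogen phosphorylase gene pygl-1 (0.76 ± 0.09, edgeR adjusted p = 4.9e-09), the glycogen synthase gene gsy-1 (0.50 ± 0.11, 0.000405) and T04A8.7 (0.43 ± 0.16, 0.0490). No glycogen gene passed at day 12 in N2, when 13.8% of all genes were called higher, a share that leaves few calls among 6 genes. Of 5 tested genes of sugar transport, 1, 2, 3 and 3 rose at days 4, 8, 12 and 16 in N2, 1 in PX991 at day 12 and 2 in EU1 at day 12. They were genes of the SWEET family, with swt-7 at 2.24 ± 0.22 (edgeR adjusted p = 4.43e-11), swt-6 at 2.09 ± 0.21 (3.6e-11) and swt-3 at 1.42 ± 0.29 (0.000161) at day 12 in N2. Of the glycerol 3-phosphate dehydrogenase genes, which make glycerol under high salt, gpdh-1 rose at day 12 in N2 (2.42 ± 0.49, edgeR adjusted p = 0.000166) and gpdh-2 did not pass (0.23 ± 0.12, 0.174). SFN comparisons not named here had 0 calls in these lists.

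Sums of intestine, muscle and hypodermis markers were higher on SFN in N2 worms at day 12, with no overlap between the groups, while those of germline and embryo markers overlapped. At day 12 in N2 the summed CPM of 7 intestine markers was 10230 on SFN (7587 to 12120) and 4824 on DMSO (3853 to 6211), and that of 8 muscle markers was 1110 (881 to 1289) and 394 (386 to 413). For 5 hypodermis markers it was 172 (127 to 214) and 36.2 (29.9 to 46.4), for 6 neuron markers 309 (286 to 338) and 278 (268 to 287), and for 9 germline and oocyte markers 7665 (7307 to 7935) and 7969 (7070 to 8859). For 5 embryo markers it was 7437 (6912 to 7848) on SFN and 7263 (6301 to 8353) on DMSO, and for 6 sperm markers 24.1 (13.2 to 33.1) and 37.6 (24 to 51.8). No marker of these lists was at 0 in either group. At day 16 the intestine markers summed to 3486 CPM (2247 to 4140) on SFN and 1481 CPM (988 to 2018) on DMSO, and the hypodermis markers to 91.7 (74.2 to 106) and 30.5 (18.9 to 45.9). Here the germline and oocyte markers were also apart, at 8657 CPM (7845 to 9589) on SFN and 6343 CPM (5881 to 6872) on DMSO, as were the embryo markers, at 8261 (7398 to 9104) and 5650 (5460 to 6011). Intestine markers were also higher on SFN in the mutants at day 12, at 5844 (3600 to 9848) on SFN and 1404 (1132 to 1690) on DMSO in PX991 and at 5476 (4355 to 7090) on SFN and 1786 (778 to 2666) on DMSO in EU1. No synthesis gene was called by SFN in either mutant at day 12, and no member at all in PX991. Muscle markers were at 522 (376 to 724) on SFN and 507 (416 to 615) on DMSO in PX991 at day 12. In EU1 they were at 586 (378 to 712) on SFN and 335 (256 to 464) on DMSO. The groups overlapped in both mutants, as they did in N2 at day 16, at 689 (463 to 966) on SFN and 508 (449 to 606) on DMSO. The part of tissue make-up in the members' changes was not tested.

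In N2 worms on DMSO of the treatment set, the sums of the intestine, muscle, hypodermis, germline and embryo lists were lower at day 16 than at day 2. That of the sperm list was higher. Intestine markers summed to 1481 CPM (988 to 2018) at day 16 and 32480 CPM (27910 to 38270) at day 2 in N2 worms on DMSO, and muscle markers to 508 CPM (449 to 606) at day 16 and 3009 CPM (2585 to 3776) at day 2. Of 5 hypodermis markers, rol-6 was at 0 in both of these groups, and their sum was 30.5 CPM (18.9 to 45.9) at day 16 and 1232 CPM (792 to 1823) at day 2. Germline and oocyte markers summed to 6343 CPM (5881 to 6872) at day 16 and 10570 CPM (9371 to 11570) at day 2, and embryo markers to 5650 CPM (5460 to 6011) at day 16 and 9445 CPM (7885 to 10330) at day 2. Sperm markers summed to 50.6 CPM (25.1 to 108.4) at day 16 and 0.433 CPM (0 to 0.715) at day 2, when 5 of the 6 were at 0. Neuron markers overlapped between the ages in this set on DMSO, at 298 CPM (282 to 324) at day 16 and 248 CPM (202 to 303) at day 2. They were higher at day 16 with no overlap on SFN, at 276.8 to 300.7 CPM against 199.7 to 242.4 CPM. The same held in trial 2 (268 to 380.4 CPM against 181.3 to 207.7) and in trial 3 (276.9 to 341.9 CPM against 227.5 to 232.8). On SFN the embryo sums overlapped, at 8261 CPM (7398 to 9104) at day 16 and 8122 CPM (7729 to 8349) at day 2. So did the germline and oocyte sums, at 8657 CPM (7845 to 9589) and 9809 CPM (8996 to 10210). In trials 2 and 3 the sperm sums overlapped between these ages, as did the embryo sums of trial 3. The part of these sums in the members' falls and rises was not tested.

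The members' likeness to each other was taken across the 10 group means of the N2 treatment set. The correlation of log2 CPM was r = 0.938 between tps-2 and gob-1 and 0.926 between tre-1 and tre-2, and over the 10 group means of trials 2 and 3 it was 0.673 and 0.871. In the trials gob-1 was closer to tre-2 (0.797, and 0.697 in the treatment set), and the closest pair was tre-3 and tre-4 (0.883, and 0.670 in the treatment set). Between tps-1 and tre-4 the values had opposite signs, 0.852 in the treatment set and -0.566 in the trials, and between tps-1 and tre-5 they were 0.760 and 0.655. Between the synthase genes tps-1 and tps-2 it was 0.173 and 0.473, and between tre-1 and tre-5 it was -0.707 and -0.917. These values describe group means that share ages and libraries. Among 7434 genes with a mean of at least 10 CPM, those most like tps-1 were kin-29 (r = 0.988 in the treatment set and 0.951 in the trials), puf-9 (0.987 and 0.600) and C09E8.1 (0.982 and 0.512). Most like tps-2 were F08G2.5 (0.974 and 0.524), the glycolysis gene gpd-3 (0.968 and 0.539) and npa-1 (0.961 and 0.585), and most like gob-1 were F55H12.4 (0.984 and 0.769), cyp-35C1 (0.982 and 0.659) and C48E7.1 (0.975 and 0.576). For tre-1 they were tag-335 (0.984 and 0.473), exoc-7 (0.977 and 0.975) and unc-57 (0.969 and 0.641), for tre-2 hprt-1 (0.978 and 0.938), the vitellogenin gene vit-3 (0.972 and 0.963) and WBGene00009651 (0.972 and 0.870), and for tre-3 fbxa-60 (0.970 and 0.933), nhr-80 (0.965 and 0.779) and crn-6 (0.964 and 0.788). The genes tre-4 and tre-5 lay below the level set for this search.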

How the data were processed

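The deposited values are raw read counts per gene. The authors made them with featureCounts of Subread 2.0.2 on WBcel235, per the submitters' processing notes, over exons of Ensembl release 108 with no strand setting in the N2 treatment table, per the file headers. The aligner is not given in the sources used here. Gene symbols and positions came from Ensembl release 115 of WBcel235, which matched 46926 of 46926 identifiers. Columns were matched to libraries by name, 0 were unused, and 0 of 199 replicate pairs were identical.

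The main test was edgeR 4.0.16 (R 4.3.3; filterByExpr, TMM, robust quasi-likelihood fit) over all genes of a table, with p adjusted by Benjamini-Hochberg and a threshold of 0.05. It had 1 term per group, a collection term in EU1 and a trial term in trials 2 and 3. Strains were compared in 1 model of days 4 and 12. The residual degrees of freedom were 30 in N2, 12 in PX991, 16 in EU1 and 34 in the trials. DESeq2 1.42.0 and limma 3.58.1 (voom with library weights) were alternatives. SE is the log2 fold change divided by the root of F.

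The members, the sugar metabolism lists and the markers were chosen with earlier results of these data known. All 8 members are named in every comparison. Each list names its 3 genes called in most SFN comparisons, and fgt-1 did not match. Likeness used Pearson correlation of log2(CPM + 1) over group means. Same-numbered replicates were checked by the correlation of their deviations from group means: in EU1, 11 of 11 pairs had r from 0.122 to 0.481. They were treated as paired only with the replicate block, an alternative setting, and the main EU1 fit had the collection term instead. The numbers come from the labels.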

Additional observations from a re-analysis of the deposited data

Results flagged for a closer look

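Of 224 sets of 4 to 6 libraries examined for each member and group, 18 held a library far from the others, where chance gives about 1 in 20. These fell in 14 libraries. Among the genes of synthesis, tps-2 was high in trial 2 at day 4 in replicate 4 (42.68 CPM, others 31.94 to 32.84) and at day 12 in replicate 3 (44.71 CPM, others 41.06 to 41.34). The phosphatase gene gob-1 was low in N2 DMSO at day 8 in replicate 1 (38.95 CPM, others 44.74 to 45.4), high in trial 2 at day 4 in replicate 4 (45.35 CPM, others 39.82 to 40.75) and high in EU1 DMSO at day 4 in replicate 6 (46.19 CPM, others 19.76 to 27.81).

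Among the trehalases, tre-1 was high in N2 SFN replicate 4 at day 2 (180.6 CPM, others 163.4 to 165) and at day 4 (181 CPM, others 155.9 to 160.1). It was low in N2 DMSO at day 4 in replicate 2 (114.9 CPM, others 169.5 to 176.2) and high in trial 3 at day 4 in replicate 2 (222.7 CPM, others 197.7 to 200.9). The trehalase tre-2 was high in trial 2 at day 4 in replicate 3 (77.37 CPM, others 67.71 to 69.06) and in PX991 DMSO at day 4 in replicate 2 (131.5 CPM, others 104.8 to 108.6). It was low in EU1 SFN at day 4 in replicate 2 (52.57 CPM, others 78.23 to 83.66) and at day 12 in replicate 4 (22.75 CPM, others 38.83 to 46.02). In that last library tre-5 was high (17.45 CPM, others 7.882 to 10.42). In N2 SFN replicate 1 at day 2, both tre-3 (32.08 CPM, others 21.07 to 22.77) and tre-5 (12.03 CPM, others 3.83 to 4.987) were high. In trial 2, tre-3 was high at day 16 in replicate 4 (18.13 CPM, others 11.78 to 12.68) and tre-4 was low at day 4 in replicate 3 (5.662 CPM, others 7.076 to 7.338).

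SFN effects that differed between groups by a test of the difference were those of gob-1 between days 12 and 4 in N2 (0.96 on the log2 scale), of gob-1 (-1.29) and tps-2 (-1.14) between PX991 and N2 at day 12, and of gob-1 between EU1 and N2 at day 12 (-0.93). The SE and adjusted p of each are given with the comparison.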

How the results depend on the processing

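Of 1316 values of members under other settings, 1240 kept their side of the threshold, 24 calls were lost, 50 were gained and 2 called values turned round. The cause of these changes was not tested unless stated. The counts below stand without the share of all genes called under each setting, so they show only how the members' calls moved. Here, day 16 against day 2 and day 12 against day 4, with no further words, mean the difference of SFN effects in N2. Both turns came from the trials: over days 16 and 2, tps-2 was 0.20 in trial 2 alone and tps-1 was -0.19 in trial 3 alone, with 5 members called in trial 2. With DESeq2, members called by SFN numbered 1 at each of days 2, 4 and 8 in N2 and 1 in EU1 at day 12, where edgeR had 0, 0, 0 and 2. It called 2 for day 12 against day 4 and 1 for EU1 against N2 at day 4. With limma-voom the counts were 1 at day 2, 4 at day 8, 3 for day 16 against day 2, and 1 and 4 for EU1 against N2 at days 4 and 12. With DESeq2-type size factors they were 1 at day 8, 1 in EU1 at day 12 and 1 for PX991 against N2 at day 12. With no filter on low counts they were 1 at day 8, 2 for day 12 against day 4, 1 for PX991 against N2 and 0 for EU1 against N2 at day 12. From the 2 groups alone 4 were called at day 8. Without the 2 shallow DMSO libraries 1 was called at day 4, 1 at day 8, 1 for day 16 against day 2 and 2 for day 12 against day 4.

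Leaving out each library in turn kept 2153 of 2280 values on their side of the threshold. No called value turned round, and 117 values that were not called took the other sign. Each time the scaling was recomputed, and in the model of all strains the library that TMM scales to was another one in 49 of 55 fits, so that a value on all libraries can lie outside the range of these fits. With genes and scale factors kept, a setting chosen after seeing the data, counts still ran from 1 to 2 for PX991 against N2 at day 12 and from 0 to 1 for EU1 against N2 at each age. Counts ran from 0 to 1 at days 2 and 4, from 4 to 5 at day 12 and from 2 to 6 at day 16 in N2, and from 0 to 2 in EU1 at day 12. For the difference of SFN effects in N2 they ran from 0 to 1 for day 16 against day 2 and from 1 to 3 for day 12 against day 4. With age in PX991 on SFN they ran from 4 to 7. They ran from 1 to 2 for PX991 against N2 at day 12 and from 0 to 1 for EU1 against N2 at each age.

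With the replicate block, 197 member values kept their side of the threshold and 3 calls were lost: tre-1 in EU1 at day 12 (0.23, adjusted p = 0.0585, leaving 1 member, also 1 with neither block nor collection term), tps-1 with age in N2 on SFN (0.76, 0.0556) and tps-2 for PX991 against N2 (-1.14, 0.0581, leaving 1). Same-numbered SFN and DMSO libraries had a correlation over 0.1 in 11 of 11 pairs in EU1, 3 of 20 in N2 and 2 of 8 in PX991. Collection was not removed before these correlations, so in EU1 pairing by number cannot be told apart from shared collection. The shallow libraries limit what can be seen of tre-4 and tre-5, with a count of 0 allowing up to 5.47 CPM.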

Other observations

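N2 worms on DMSO at day 12 were measured in the treatment set and in trials 2 and 3. The mean of tre-1 was 78.2 ± 7.2 CPM in the treatment set (SD, n = 4), and its libraries ran from 127 to 143 CPM in the trials. The mean of gob-1 was 23.8 ± 2.5 CPM in the treatment set, and its libraries ran from 31.7 to 40.3 CPM in the trials. In the N2 SFN libraries of day 12 the same genes stood at 111 ± 10 and 50.8 ± 8.0 CPM. At day 12, tps-1 means were 42.08 CPM in trial 2, 29.67 CPM in trial 3 and 41.28 CPM on SFN. Those of tps-2 were 42.07, 27.64 and 54.93 CPM, and those of tre-3 were 11.32, 18.05 and 37.81 CPM. At day 16, tps-1 means were 56.27, 21.85 and 33.46 CPM in the same order, and tps-2 means were 47.62, 23.52 and 41.54 CPM. At day 16 both synthase means were thus higher in trial 2 DMSO worms than on SFN, and lower in trial 3. The tables were counted and scaled separately, so these levels were not tested against each other.

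Genes of sugar metabolism outside the trehalose group were also compared with age in N2 worms on DMSO. Between day 16 and day 2, with 22.8% of all genes called lower and 29.9% higher, 13 of 17 glycolysis genes were lower and 2 higher, 5 of 6 genes of gluconeogenesis and the glyoxylate cycle were lower and 0 higher, and 4 of 6 glycogen genes were lower and 1 higher (edgeR adjusted p under 0.05). Between day 12 and day 4, with 19.5% of all genes lower and 25.5% higher, 4 of 17 glycolysis genes were lower and 3 higher, 2 of 6 gluconeogenesis and glyoxylate genes were lower and 0 higher, and 1 of 6 glycogen genes was lower and 2 higher. In trials 2 and 3 between day 16 and day 2, with 31% of all genes lower and 32.7% higher, 9 of 16 tested glycolysis genes were lower and 1 higher, 6 of 6 gluconeogenesis and glyoxylate genes were lower, and 4 glycogen genes were lower and 1 higher. Between day 12 and day 4 in the trials, 10 glycolysis genes were lower and 1 higher, 3 gluconeogenesis and glyoxylate genes were lower and 0 higher, and 4 glycogen genes were lower and 1 higher.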
